A study of Mus musculus with 2 samples.

Results

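The core genes of the circadian clock were described in a list of TET2 binding sites from cultured mouse adipocytes. The set held 10 genes of the 21951 protein-coding genes in the GENCODE M21 annotation of GRCm38, which lists 55450 genes of all kinds: Clock, Arntl, Per1, Per2, Per3, Cry1, Cry2, Dbp, Tef and Bhlhe40. They were chosen by name for their known roles in the clock. No measured value was a criterion, but earlier results of these data were known when the choice was made. TET2 is an enzyme that oxidises 5-methylcytosine in DNA to 5-hydroxymethylcytosine. The study used ChIP-seq to ask whether the leptin gene is among the targets of TET2 in adipocytes. Adipose-derived stem cells were taken from mouse inguinal white adipose tissue, expanded to passage 3 and induced to become adipocytes with IBMX, dexamethasone and insulin. The TET2 sample was fixed chromatin collected with an antibody against TET2, and the input sample was chromatin of the same kind of cells sequenced without that step. There was 1 library of each and therefore no replicate error for any value. The genotype, sex and age of the mice and the hour of harvest are not given in the labels, so nothing here describes a rhythm. A list of intervals measures no expression, and the adipocyte identity of the cells could not be checked against marker genes.

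The mammalian clock is a transcription loop that runs in nearly every cell, fat cells included. CLOCK and BMAL1, the product of Arntl, bind together as an activator at E-box sequences and switch on the Per and Cry genes, whose proteins return to the nucleus and inhibit that activator. The same activator drives output genes such as Dbp and Tef, which encode PAR bZIP factors that bind D-box sequences, and Bhlhe40, which encodes a repressor that competes for E-boxes. In adipose tissue this loop is known to set daily rhythms of lipid handling and hormone secretion.

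The deposited list held 14103 TET2 peaks, intervals in which the authors' peak caller found more TET2 fragments than background. Each peak carried a −log10 p, the caller's value for that excess, which ranged from 3.07 to 335.2 over the list and had a median of 6.21 (quartiles 5.13 and 7.91). The shortest interval length, 375 bp, was shared by 4509 peaks (32.0%), and the median length was 426 bp. The list gives no number of reads behind a peak, and the total yield of sequencing is stated in data size rather than in reads per library, so the counting error of a single peak is not given. Peaks were placed by their midpoints. A promoter peak had its midpoint within 1 kb of any annotated transcription start site (TSS) of the gene, and 5824 peaks (41.3%) were promoter peaks of some gene.

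Of the 10 clock genes, 5 carried a TET2 peak, with 1 peak each, and the other 5 carried none in the gene or within 3 kb of a TSS. Promoter peaks were found at Clock, Arntl, Per3 and Tef, while Cry2 had a peak in an intron far from its start sites. Per1, Per2, Cry1, Dbp and Bhlhe40 were without a peak. The 4 genes with a promoter peak were 40% of the set (exact 95% binomial interval 12.2 to 73.8), against 24.6% of all protein-coding genes. Such an interval reflects only the small number of genes and covers no error of the peaks themselves. The genes were chosen by name and not drawn at random, so the intervals are a guide and not a test. No clock gene had a peak at 1 to 3 kb (0%, upper limit 30.8%), where the share of protein-coding genes was 5.05%. A peak in the gene over 3 kb from every TSS was seen at 1 clock gene (10%, 0.253 to 44.5), against 13% of protein-coding genes. With all positions together, 50% of the clock genes (18.7 to 81.3) and 36.4% of protein-coding genes had a peak. Each of these intervals for the clock genes contained the share of all protein-coding genes.

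**Figure D1:**
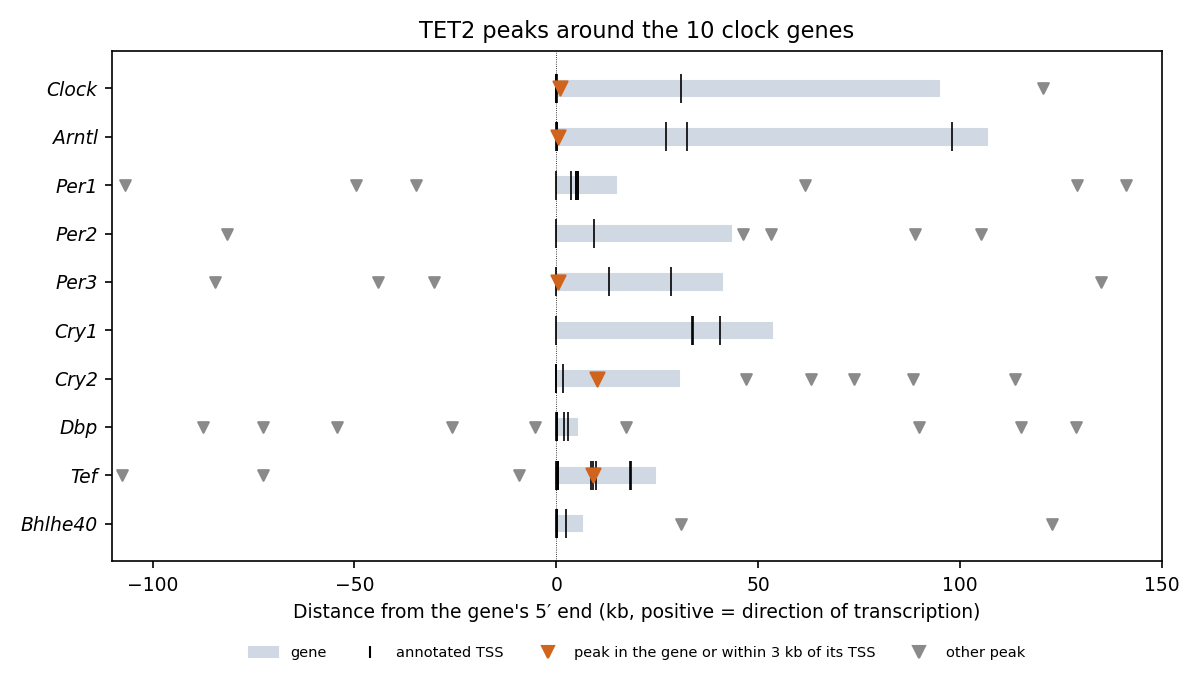
TET2 peaks around the 10 clock genes, drawn along the direction of transcription from the 5′ end of each gene in kb. Bars are genes, black ticks annotated TSSs, orange triangles the 5 peaks in a gene or within 3 kb of its TSSs, and grey triangles other peaks of the list; Dbp has 7 peaks within 100 kb and none in the gene, and Cry1 has none within 100 kb.

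Promoters of clock genes were rich in CpG dinucleotides, the dinucleotides whose methylated cytosine TET2 oxidises. The ratio of observed to expected CpG in the 300 bases from 250 bp before to 50 bp after the 5′ end was at least 0.6 at 9 of the 10 genes, with a median of 0.836, against a median of 0.524 over protein-coding genes, of which 44.4% reached 0.6. Among protein-coding genes with a ratio of at least 0.6, 37.6% had a promoter peak, and below it 14.2% did. Of the 9 clock genes that reached 0.6, Clock, Arntl and Per3 had a promoter peak. The gene below 0.6 was Tef, with 0.222 at its 5′ end, and its promoter peak lay at an internal TSS. Clock genes also had a higher median number of annotated start sites, 4.5 a gene against 3, and each start site adds a window in which a peak can fall. They had 48 in all, 10 of them in Tef, while Per2 had 2 and Per3 and Cry2 had 3 each. Of protein-coding genes with 2 to 10 TSSs, the range of the clock genes, 26.4% had a promoter peak. Within that range the share rose with the number of TSSs. It was 16.5% at 2, 22.3% at 3, 26.9% at 4, 30.5% at 5 and 32.2% at 6. The part of CpG content and of the number of TSSs in the counts at clock genes was not tested.

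The 2 genes of the activator, Clock and Arntl, both carried a peak with its midpoint in intron 1. Clock (ENSMUSG00000029238, chr5:76209868-76304792, minus strand) encodes a bHLH-PAS protein with histone acetyltransferase activity. Its peak, chr5:76303650-76304024, had a −log10 p of 5.31, and 69.6% of the list had a larger value. The midpoint lay in intron 1, 711 bp downstream of the nearest GENCODE TSS and 955 bp downstream of the 5′ end. By the GENCODE TSSs it was thus close to the 1 kb limit of the promoter class. Of protein-coding genes with a promoter peak, 3.39% had their nearest midpoint farther downstream than Clock. The peak held 47 CpGs in 375 bp, with a GC content of 71.5% and a CpG ratio of 0.984, which was above 95.7% of the peaks in the list. The 300 bases of the peak nearest to the GENCODE TSS are shown, read from GRCm38 on the minus strand in the direction of transcription. Capitals mark GGGCGG, the core of the SP1 motif, on either strand and CACGTT, a variant of the E-box.
Clock peak, chr5:76303725-76304024: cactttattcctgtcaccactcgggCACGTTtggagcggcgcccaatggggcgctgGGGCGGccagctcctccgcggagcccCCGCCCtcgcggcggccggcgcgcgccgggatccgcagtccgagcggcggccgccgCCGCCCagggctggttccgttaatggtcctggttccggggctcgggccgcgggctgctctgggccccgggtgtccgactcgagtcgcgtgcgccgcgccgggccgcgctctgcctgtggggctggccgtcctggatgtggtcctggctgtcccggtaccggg

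Arntl (ENSMUSG00000055116, chr7:113207465-113314126, plus strand) encodes BMAL1, the obligate partner of CLOCK. Its peak, chr7:113207605-113207987, had a −log10 p of 8.64, the highest of the 5 peaks at clock genes, and 16.8% of the list and 21.5% of promoter peaks had a larger value. It ranked 179 of 927 peaks on chromosome 7. The interval began in the last 40 bp of the 5′ untranslated part of exon 1, and its midpoint lay in intron 1, 239 bp downstream of the nearest of the 3 TSSs that mark the start of the gene and 331 bp downstream of the 5′ end. The other 3 TSSs of Arntl lay 27158 to 97955 bp farther into the gene, had CpG ratios of 0 to 0.255, and the midpoint nearest to any of them was 26827 bp away. The GC content of the peak, 79.1%, was above 99.9% of the list, with 52 CpGs in 383 bp. The last 300 bases of the peak, all intronic, are shown on the plus strand because they hold all 5 of its GGGCGG matches, in capitals on either strand. A pair of them on the reverse strand lie end to end.
Arntl peak, chr7:113207688-113207987: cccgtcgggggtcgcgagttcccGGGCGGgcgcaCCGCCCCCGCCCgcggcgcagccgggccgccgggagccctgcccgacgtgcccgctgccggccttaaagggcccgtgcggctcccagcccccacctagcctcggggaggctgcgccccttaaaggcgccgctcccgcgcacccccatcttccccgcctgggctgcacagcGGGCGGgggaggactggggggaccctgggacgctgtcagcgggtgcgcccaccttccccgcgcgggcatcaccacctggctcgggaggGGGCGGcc

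The PER and CRY proteins form the repressor that closes the loop, and 2 of these 5 genes had a peak, Per3 at its start site and Cry2 inside the gene. Per3 (ENSMUSG00000028957, chr4:151003652-151044665, minus strand), the member of the family least needed for the core rhythm, had a peak at chr4:151044169-151044548 with a −log10 p of 6.76. In the list 42.5% of peaks had a larger value, and its rank among the 5824 promoter peaks was 3031. The midpoint lay 307 bp downstream of the 5′ end, and the whole interval fell in exon 1, with 316 bp in the 5′ untranslated part and 64 bp in the coding part. The same interval lies in intron 24 of Camta1, a gene of the same strand whose annotated span covers Per3 and whose nearest TSS was 35435 bp from the midpoint. The peak held 25 CpGs, with a GC content of 62.6%, the lowest of the 4 promoter peaks, and a CpG ratio of 0.676. It was the only promoter peak of the 4 without a GGGCGG match. Such matches stood instead upstream of the start site, outside the interval. The 250 bases directly upstream of the TSS, none of which lie in the peak, are shown from the promoter table of RefSeq on GRCm38, minus strand, with GGGCGG on either strand and the D-box TTANGTAA in capitals.
Per3 promoter, chr4:151044666-151044915: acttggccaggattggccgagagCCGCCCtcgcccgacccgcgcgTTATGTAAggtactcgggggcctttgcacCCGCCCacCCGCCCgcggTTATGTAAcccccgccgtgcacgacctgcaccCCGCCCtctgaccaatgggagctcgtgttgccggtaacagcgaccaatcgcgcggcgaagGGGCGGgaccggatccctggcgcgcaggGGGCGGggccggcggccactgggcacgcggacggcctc
The 2 D-boxes stand 205 and 158 bp before the TSS. Of the 8 clock genes with an entry in that table Per3 alone had a D-box, and the D-box was found in 2.32% of all 32817 promoters.

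Cry2 (ENSMUSG00000068742, chr2:92403646-92434043, minus strand) encodes a cryptochrome, the main repressing partner of the PER proteins together with CRY1. Its peak, chr2:92423808-92424182, lay in intron 3, 8397 bp downstream of the nearest TSS and 10048 bp from the 5′ end, and also within intron 3 of D930015M05Rik, a non-coding transcript of the opposite strand. It had the lowest −log10 p of the 5, 4.12, a value that 946 peaks of the list share and that 89.9% of peaks exceeded. In base composition it stood apart from the 4 promoter peaks: it held 4 CpGs in 375 bp, a CpG ratio of 0.112, against 0.676 to 0.984 in the others. It had no GGGCGG match. It was the only peak at a clock gene with the E-box CACGTG, and it held 2 copies, shown in capitals in the central 300 bases on the minus strand.
Cry2 peak, chr2:92423845-92424144: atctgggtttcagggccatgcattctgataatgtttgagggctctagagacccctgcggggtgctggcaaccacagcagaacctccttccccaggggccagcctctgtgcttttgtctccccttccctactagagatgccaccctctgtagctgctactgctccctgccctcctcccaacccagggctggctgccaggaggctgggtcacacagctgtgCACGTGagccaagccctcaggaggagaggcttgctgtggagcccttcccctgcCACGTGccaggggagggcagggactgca
The midpoints of the 2 E-boxes lay 72.5 and 125.5 bp from the midpoint of the peak. CACGTG was found in 8.79% of all peaks, so a copy is a description of these letters and not evidence of a bound factor. Around the 5′ end of Cry2 the CpG ratio was 0.855, and no midpoint lay within 3 kb of any of its 3 TSSs.

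Per1, Per2 and Cry1 had no peak of the list, although their 5′ ends had CpG ratios of 0.648, 1.16 and 0.988. Per1 (ENSMUSG00000020893, chr11:69095217-69109960, plus strand), an immediate early gene of the clock that light and glucocorticoids induce, had its nearest peak 34.7 kb upstream. That peak, chr11:69060281-69060840, had a −log10 p of 8.94 and lay in Borcs6, 77 bp upstream of a TSS of the antisense gene 9330160F10Rik. Per2 (ENSMUSG00000055866, chr1:91415982-91459324, minus strand) had a promoter CpG ratio above 98.9% of protein-coding genes. Its nearest peak, chr1:91412715-91413258 with a −log10 p of 6.26, lay past the 3′ end of Per2, 36.9 kb from its nearest TSS and 222 bp downstream of the TSS of Hes6, a Notch pathway repressor gene. Cry1 (ENSMUSG00000020038, chr10:85131700-85185064, minus strand) was the farthest from a peak, with 158.1 kb to a peak in Ric8b (−log10 p 7.34) and none within 100 kb of the 5′ end. Promoters of Per1 and Cry1 hold an E-box, the kind of sequence through which the activator is known to drive these genes. They are shown from RefSeq on GRCm38 in the direction of transcription, with CACGTG and, in Cry1, its variant CACGTT on the reverse strand in capitals.
Per1 promoter, chr11:69098699-69098947, plus strand: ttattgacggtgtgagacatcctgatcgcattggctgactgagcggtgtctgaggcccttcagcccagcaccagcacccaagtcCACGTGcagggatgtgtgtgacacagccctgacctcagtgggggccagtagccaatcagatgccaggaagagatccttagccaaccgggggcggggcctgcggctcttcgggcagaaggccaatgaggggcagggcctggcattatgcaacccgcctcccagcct
Cry1 promoter, chr10:85185065-85185304, minus strand: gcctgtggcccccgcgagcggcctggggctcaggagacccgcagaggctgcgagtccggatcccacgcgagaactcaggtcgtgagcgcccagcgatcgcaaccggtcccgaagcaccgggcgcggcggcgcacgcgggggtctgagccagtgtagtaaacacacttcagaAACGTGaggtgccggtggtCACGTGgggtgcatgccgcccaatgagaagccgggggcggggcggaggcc
The E-box stands 166 bp before a RefSeq TSS of Per1 and 60 bp before that of Cry1. The midpoint nearest to the second TSS of Per1 in GENCODE, to which this promoter belongs, was 38388 bp away.

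**Figure D2:**
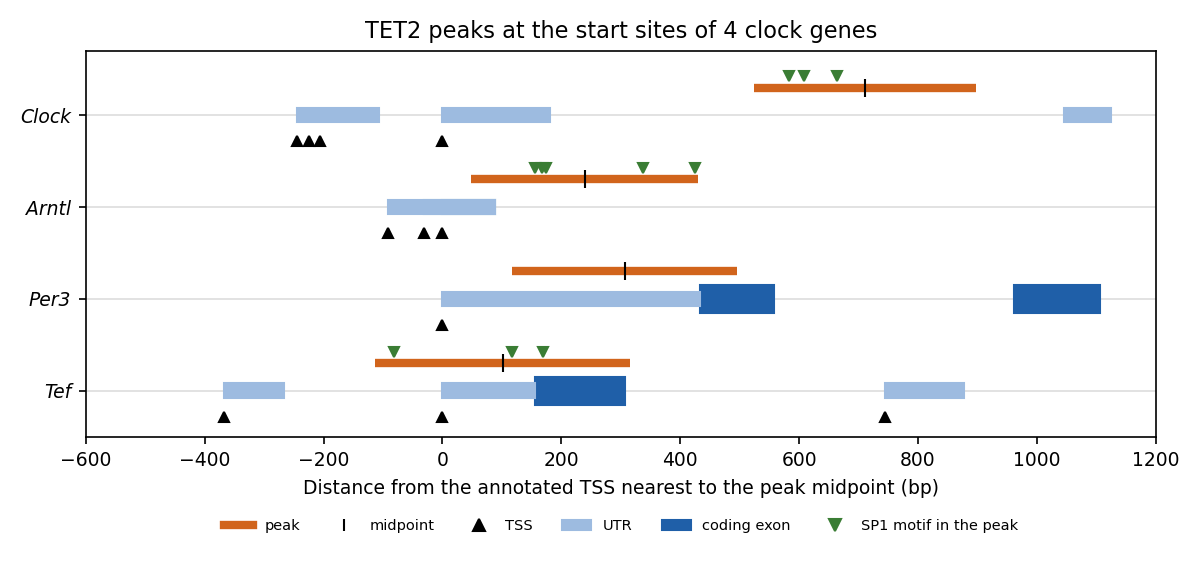
The 4 promoter peaks of clock genes, in bp from the TSS nearest to each midpoint, with orange bars for peaks, black ticks for midpoints, triangles on the lower side for TSSs, light and dark blue boxes for untranslated and coding exon parts, and green triangles for GGGCGG matches in the peak. All 4 midpoints lie downstream of the nearest GENCODE TSS, at 101 to 711 bp, and the Per3 peak has no GGGCGG match.

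Of the PAR bZIP output genes, Tef had a peak and Dbp did not. Tef (ENSMUSG00000022389, chr15:81802421-81826863, plus strand) had the most annotated start sites of the set, 10. Its peak, chr15:81811300-81811730, had a −log10 p of 6.70 and was exceeded by 43.2% of the list. The peak was not at the 5′ end of the gene. Its midpoint was 9094 bp downstream of it and 101 bp downstream of an internal TSS, at which the transcript ENSMUST00000023024 starts, and the interval covered the 156 bp untranslated and 151 bp coding parts of that transcript's exon 1. The 2 start regions of Tef differed in base composition. At the internal TSSs in and before the peak the CpG ratio was 0.834 and 0.877, whereas at the 5 TSSs around the 5′ end it was 0.222 to 0.287, and the midpoint nearest to those was 8689 bp away. Tef was the clock gene whose 5′ end fell below a ratio of 0.6. With the 5′ end alone as the TSS, Tef had no promoter peak and the count of clock genes with one was 3. The share of all protein-coding genes was not computed for that choice of TSS. The promoter sequence before the internal TSS is shown from RefSeq on GRCm38, plus strand, with CACGTG and a GGGCGG match on the reverse strand in capitals. Its last 114 bases lie in the peak and the E-box lies outside it.
Tef promoter, chr15:81811164-81811413: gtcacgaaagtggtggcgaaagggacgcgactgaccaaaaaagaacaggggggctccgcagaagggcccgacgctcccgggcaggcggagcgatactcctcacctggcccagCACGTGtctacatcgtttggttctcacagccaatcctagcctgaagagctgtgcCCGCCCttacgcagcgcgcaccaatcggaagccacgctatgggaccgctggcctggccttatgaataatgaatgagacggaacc
The coding part of the same exon and the first bases of its intron, all inside the peak, follow with a further GGGCGG match in capitals.
Tef peak, chr15:81811570-81811730: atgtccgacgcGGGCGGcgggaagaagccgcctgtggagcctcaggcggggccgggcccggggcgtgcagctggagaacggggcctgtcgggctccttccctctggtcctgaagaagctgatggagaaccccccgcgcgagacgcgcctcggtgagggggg

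Dbp (ENSMUSG00000059824, chr7:45705088-45710203, plus strand), a gene known for its strong daily rhythm, lay in the part of the list richest in peaks among the 10, with 7 midpoints within 100 kb of its 5′ end against a median of 2 for protein-coding genes. None of these was in Dbp or within 3 kb of its 5 TSSs. The nearest, chr7:45699514-45700365, had a −log10 p of 8.24 and lay 5.15 kb upstream of Dbp, 96 bp downstream of the TSS of Car11. Bhlhe40 (ENSMUSG00000030103, chr6:108660629-108666925, plus strand), also known as Dec1, had its nearest peak 28.4 kb from a TSS, past the end of the gene, at chr6:108691293-108691667, in no annotated gene and with a −log10 p of 4.12. The CpG ratio at the 5′ end was 0.687 for Dbp and 0.762 for Bhlhe40, both over 0.6.

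**Figure D3:**
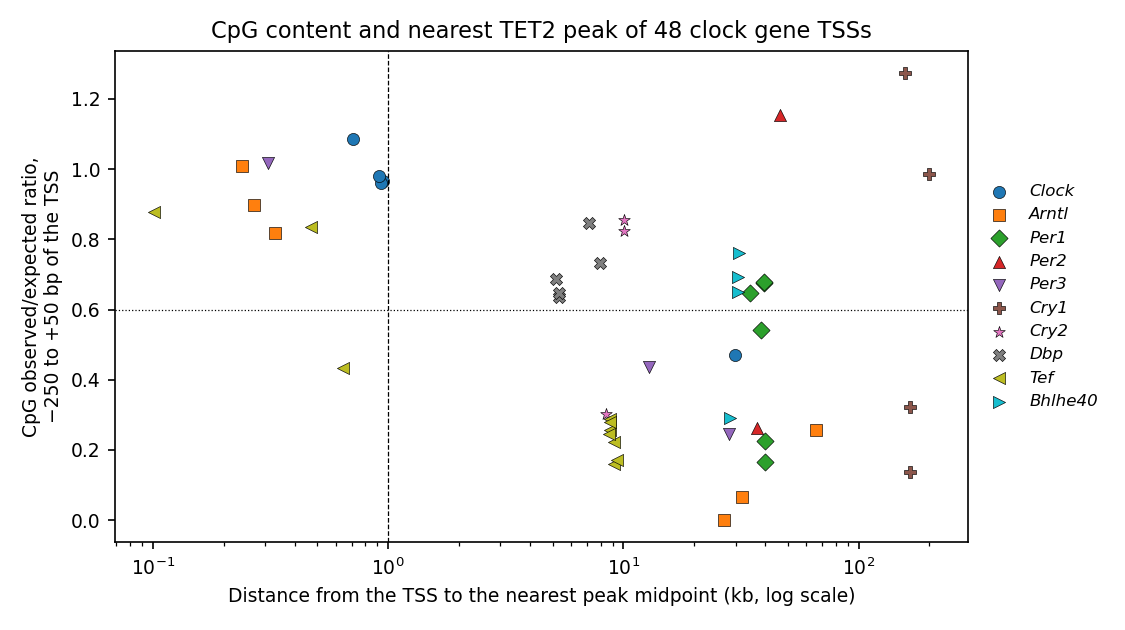
CpG observed to expected ratio around each of the 48 TSSs of the clock genes, from 250 bp before to 50 bp after the TSS, against the distance in kb from the TSS to the nearest peak midpoint on a log scale. Each mark is a TSS, with shape and colour for the gene; the dashed line is at 1 kb, with the 11 TSSs of Clock, Arntl, Per3 and Tef to its left, and the dotted line is a ratio of 0.6.

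The plot of CpG ratio by distance shows how start sites of the same gene differed. The 11 TSSs within 1 kb of a midpoint were those at the start of Clock, Arntl and Per3 and the internal group of Tef. Of these 11, the TSS of Tef at position 81812159 had the lowest ratio, 0.433, and the other 10 were above 0.6. A high ratio was also common among TSSs far from a peak, such as the 5′ ends of Cry1, Cry2 and Per2. A TSS of Cry1 inside the gene had the highest ratio of all, 1.27, with a midpoint no nearer than 158144 bp.

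**Figure D4:**
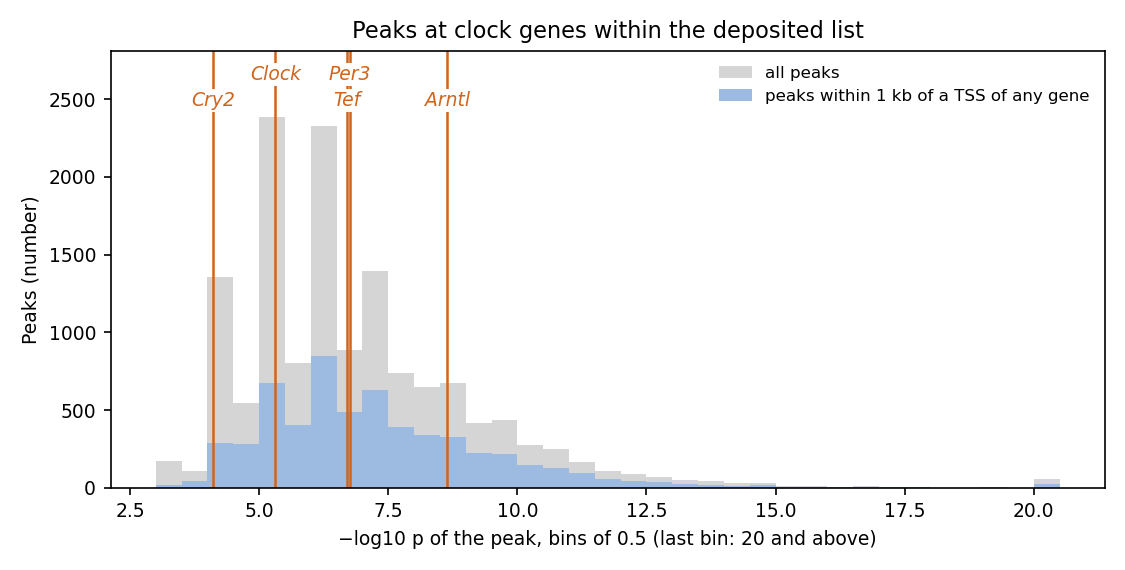
Number of TET2 peaks by −log10 p in bins of 0.5, for all 14103 peaks in grey and for promoter peaks of any gene in blue, with the last bin holding values of 20 and above. Orange lines mark the peaks at clock genes; Clock and Cry2 lie below the median of the list, 6.21, and Per3, Tef and Arntl above it.

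The peaks at clock genes were of ordinary size for this list. Their median −log10 p was 6.70, against 6.21 over all peaks and 6.90 over promoter peaks. Arntl, at 8.64, exceeded the upper quartile of the list, 7.91, and Cry2, at 4.12, lay below the lower quartile, 5.13. A −log10 p under 5 was carried by 2182 peaks of the list (15.5%), the Cry2 peak among them. With peaks of at least 5 alone, Cry2 had no peak, and with peaks of at least 8 the Arntl peak was the only 1 left at a clock gene. The share of all protein-coding genes that kept a peak at these thresholds was not computed. With no replicate, the order of the 5 values has no error to set it against.

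The 4 promoter peaks shared a position downstream of the nearest GENCODE TSS. For Clock this depends on the annotation, since a further RefSeq promoter of Clock lies downstream of the midpoint of its peak. Among protein-coding genes with a promoter peak, 67.3% had the nearest midpoint at or downstream of the TSS, with a median offset of 81 bp downstream and quartiles of −37.5 and 247.5 bp. Offsets larger than those at Arntl, Per3 and Tef were seen in 25.7%, 19.1% and 46.6% of these genes. Clock and Per3 therefore lay beyond the upper quartile.

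Sequence motifs of the clock itself were sought in the 5 peaks at clock genes, and the variant CACGTT was added to them after the data had been seen. Motifs were searched on both strands in the whole peak. The E-box CACGTG was found at 1 of the 5 peaks, that of Cry2, and the variant CACGTT at 1, that of Clock, against 8.79% and 7.36% of all peaks. The D-box TTANGTAA and the ROR and REV-ERB element, AGGTCA preceded by 3 bases of A or T, were found in none of the 5 and in 1.91% and 1.67% of all peaks. GGGCGG was found in 3, Clock, Arntl and Tef, with 3, 5 and 3 copies, and GCCNNNGGC, the core of the AP-2 motif, in the same 3 with 2, 1 and 2 copies. These motifs were common in the list as a whole: GGGCGG in 41.5% of all peaks and 68.8% of promoter peaks, GCCNNNGGC in 33.2% and 48.7%. The C/EBP core TTGCNNAA was in none of the 5 peaks and in 10.8% of all peaks. A match describes letters of the window and is neither a bound site nor a cause of the peak.

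Promoter sequences in RefSeq, 250 bases before to 50 after a start, were found for 8 of the 10 clock genes as 13 promoters. Per2 and Bhlhe40 had no entry. CACGTG was in 4 of these 13 (30.8%), of Per1, Cry1 and Tef, against 7.15% of all 32817 promoters. Tef held a copy in each of its 2 promoters, 127 bp before the RefSeq TSS near the 5′ end and 138 bp before the internal one. Of the 3 genes, Tef had a promoter peak at its internal start, and Per1 and Cry1 had none. GGGCGG was in 12 of the 13 (92.3%), at all 8 genes, against 35.6% of all promoters, so that it was as common at clock genes without a peak as at those with one. These comparisons with all promoters were not matched for CpG content, in which clock gene promoters are rich. The 13 are also not separate sequences, since promoters of the same gene can overlap, as those of Arntl do.

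**Figure D5:**
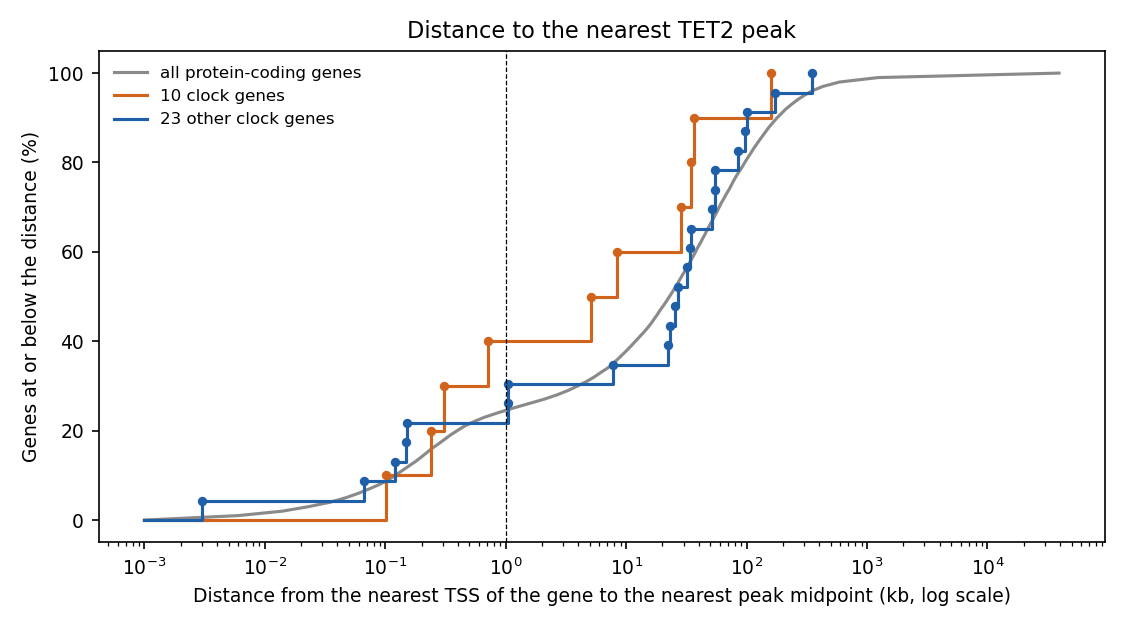
Share of genes in percent whose nearest peak midpoint lies at or below a distance, in kb on a log scale, from the nearest TSS of the gene, for the 10 clock genes in orange, 23 other genes of the clock in blue and all protein-coding genes in grey. The orange steps reach 40% at the 1 kb line, where the grey line is at 24.6% and the blue steps at 21.7%.

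Distances to the nearest peak had a median of 6.77 kb over the 10 clock genes and of 22.9 kb over protein-coding genes. For the 5 genes without a peak the distance ranged from 5.15 to 158.1 kb. The median of 10 genes falls between the 5 nearest and the 5 farthest, here between Dbp at 5.15 kb and Cry2 at 8.40 kb. Within 100 kb of the 5′ end there was a median of 3 midpoints, against 2 over protein-coding genes.

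A wider list of 23 clock genes, grouped by role, held 5 with a promoter peak (21.7%, exact 95% interval 7.46 to 43.7), beside 24.6% of protein-coding genes. The intervals of the 2 lists overlap. In all, 9 of the 23 (39.1%) had a peak in the gene or within 3 kb, near the 36.4% of protein-coding genes, and the median distance was 27.1 kb, against 22.9 kb. Among the paralogues of the activators, Arntl2, the close relative of Arntl, had a promoter peak with a −log10 p of 11.7, larger than that of Arntl and of rank 496 in the list, 151 bp downstream of a TSS. Npas2, which can replace Clock, had a peak 1049 bp upstream of its TSS with a −log10 p of 5.74, just outside the promoter class. Clock, Arntl, Npas2 and Arntl2 thus all had a peak within 1.05 kb of a TSS, but this grouping and this distance were chosen after the values were seen. Over protein-coding genes, 25% had their nearest midpoint within 1.13 kb of a TSS.

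Peaks were also found at genes of enzymes that set how long PER and CRY proteins last. Csnk1d, a kinase that phosphorylates PER proteins, had a peak with its midpoint 3 bp from a TSS and a −log10 p of 7.79. At Usp2, a deubiquitinase gene, the peak (−log10 p 6.24) lay 120 bp downstream of an internal TSS, 18049 bp from the 5′ end, an arrangement like that of Tef. Btrc, a ubiquitin ligase subunit gene, had a peak inside the gene (−log10 p 6.18), and Csnk1e, Gsk3b, Fbxl21 and Fbxw11 had none.

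Among genes of nuclear receptors that act on Arntl, Rorb had a peak in coding exons with a −log10 p of 8.51, and Rora, Nr1d1 and Nr1d2 had none. The product of Rora activates Arntl and the products of Nr1d1 and Nr1d2, REV-ERBα and REV-ERBβ, repress it. Among the 5 repressor genes of the wider list none had a promoter peak, beside 24.6% of protein-coding genes, and so few genes cannot tell the 2 apart. Bhlhe41, the paralogue of Bhlhe40, had 2 peaks in the class of 1 to 3 kb, 1038 bp upstream (8.11) and 1897 bp downstream (7.05) of a TSS. Hlf and Nfil3, which act at D-boxes like Dbp and Tef, had no peak, nor did Timeless, Nono and Noct.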

How the data were processed

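TET2 ChIP-seq was analysed from the peak list of 1 TET2 library, which the authors called against 1 input library. The authors quality-trimmed the reads, aligned them with Bowtie and called peaks with MACS2, and the submitters' processing notes also name bcl2fastq and MACS2 version 2.1.0. The list deposited by the authors gives each interval with a −log10 p of the peak caller, a value comparable within this list only. The methods give a p-value option equal to a −log10 p of 5, under which some listed peaks fall, and name the genome GRCm39, while the processing notes name mm10. On GRCm38, the assembly of mm10, 0 peaks ran past a chromosome end and 2 held unknown bases, and that build was used.

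Intervals were read as 1-based and placed by midpoint against all transcripts of GENCODE M21. CpG ratio is the number of CpGs times the length, divided by the product of the C and G counts. RefSeq promoter sequences are of GRCm38.p6. The genes named were the 10 clock genes with their peaks and nearest peaks, genes starting within 1 kb of a clock gene's promoter peak, and genes of the wider list, some of which are counted but not reported here by name. The clock genes and lists were chosen with earlier results of these data known. No test was made, since 1 library has no replicate error; shares carry exact 95% binomial intervals (Clopper-Pearson). Values were computed in Python 3.11.15 with pandas 2.3.3, numpy 2.4.6 and scipy 1.17.1, plots drawn with matplotlib 3.10.9, and the placement step was tested on simulated data. Thresholds on −log10 p, TSS sets, windows, any base in place of the midpoint and other motif searches were tried as alternatives. Gene expression, read signal and the input by itself were not analysed here.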

Additional observations from a re-analysis of the deposited data

How the results depend on the processing

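Of 41 alternatives, 31 left a value within the limit set for it and 10 moved it, and reversals were not assessed. That limit was wide for small counts. With the 5′ end alone as the TSS, 3 clock genes with a promoter peak in place of 4 counted as unmoved. Most of the moves came from removing peaks. With a −log10 p of at least 5, clock genes with a peak in the gene body went from 1 to 0, those with an E-box in a peak from 1 to 0, and the median distance to the nearest peak from 6773 to 19903 bp. With at least 8, 1 clock gene kept a promoter peak, Arntl, with 1 peak in all, 0 in a gene body and 0 with an E-box, the median distance was 70484 bp, and 1 gene of the wider list had a promoter peak. Shares and distances over all protein-coding genes were computed for the reported settings only, so none stands beside the values under an alternative. What part of these moves follows from the smaller number of peaks was not tested. The looser E-box CANNTG was found at 4 of the 5 genes with a peak in place of 1, and is present in 84.2% of all peaks. A search for CACGTT, chosen after the data had been seen, also gave a count of 1, but at Clock in place of Cry2. The absence of a peak says only that none was called: a site with few fragments may fall below the caller's threshold.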

Other observations

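Of the 5 clock genes without a peak, 3 had their nearest peak within 1 kb of a TSS of another protein-coding gene, namely Borcs6 near Per1, Hes6 near Per2 and Car11 near Dbp. In the wider list this held for 9 of 14 genes, and over all protein-coding genes without a peak for 5928 of 13956 (42.5%). With so few clock genes, these counts are descriptions and call nothing particular to the clock. The nearest peak of Nr1d1, 34.6 kb away, lay 131 bp downstream of a TSS of Casc3, a gene of the exon junction complex. That of Nr1d2 lay 32.2 kb away, 20 bp downstream of a TSS of Nkiras1, and that of Ciart 25.5 kb away, 2 bp from a TSS of Prpf3, a spliceosome gene. The peak nearest to Nfil3 had the largest −log10 p of these, 17.0, with rank 73 of 14103, and lay 51.6 kb away at a TSS of Auh, 10 bp from it. The farthest genes of the wider list were Gsk3b at 172.5 kb and Nono, on the X chromosome, at 348.4 kb. These neighbours were named after their values were seen, and whether they share control with the clock genes was not tested.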
